A study of Mus musculus with 2 samples.

Results

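The monocyte attracting and inflammatory CC chemokines were followed in mouse bone marrow-derived macrophages (BMDMs) treated with interleukin-4 (IL-4). The group holds 8 genes, Ccl2, Ccl3, Ccl4, Ccl5, Ccl6, Ccl7, Ccl9 and Ccl12. They were picked by name out of 20656 genes that could be named on the arrays, with earlier results of these data known. The gene lists read beside them were picked likewise, so shares over all genes give scale and are no test. A probe was assigned to a gene through the RefSeq accession in the scanner output, and each of the 8 genes had exactly 1 such probe. BMDMs are macrophages grown from bone marrow cells with the growth factor M-CSF, and those used for the arrays came from 8-week-old male mice on the C57BL/6 background that carry the floxed Crif1 allele. Both conditions share this genotype, and no Cre driver is named for the array samples. One condition was left untreated and the other received IL-4 for 18 h, the T helper type 2 cytokine that drives macrophages toward the M2-like state, and the IL-4 dose of the array experiment is not given in the sources used here. Each condition was read on 1 Agilent array with a single dye, Cy3. There were no replicate arrays to check a difference against, so only the size of each change is described and no p-value is given. All differences are IL-4 minus untreated, on the log2 scale, after the 75th percentile of the log2 intensities was taken off on each array.

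CC chemokines are small secreted proteins that guide leukocytes by binding receptors coupled to G proteins. Ccl2, Ccl7 and Ccl12 encode the monocyte chemoattractant proteins, which act through CCR2 and draw inflammatory monocytes out of the bone marrow and into tissue. Ccl3, Ccl4 and Ccl5 encode macrophage inflammatory proteins and RANTES, which attract monocytes, macrophages and T cells, while the products of Ccl6 and Ccl9 act through CCR1. In macrophages these genes are best known as targets of inflammatory stimuli that activate NF-κB, and Ccl2 in adipose tissue is known for its part in recruiting macrophages during obesity. IL-4 signals through STAT6, which binds the paired half-sites TTC and GAA.

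The bases before the transcription start were read from RefSeq promoters of build GRCm38.p6, which matched 4 of the 8 members. All 4 matched members are shown, and they differed in their change after IL-4. Ccl12 was more than 2-fold higher, and Ccl3, Ccl6 and Ccl9 were under 2-fold. Ccl2, Ccl4, Ccl5 and Ccl7 had no match, so Ccl12 is the only member past 2-fold whose promoter was read. The 100 bases just before the start are given 5′ to 3′ on the strand of the gene, and capitals mark matches to TATAAA and to the kappaB motif on either strand. The stretches are chr11:82101745-82101844 on the plus strand for Ccl12, and on the minus strand chr11:83649379-83649478 for Ccl3, chr11:83593088-83593187 for Ccl6 and chr11:83578637-83578736 for Ccl9.
Ccl12: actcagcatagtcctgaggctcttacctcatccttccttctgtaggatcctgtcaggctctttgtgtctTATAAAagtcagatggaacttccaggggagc
Ccl3: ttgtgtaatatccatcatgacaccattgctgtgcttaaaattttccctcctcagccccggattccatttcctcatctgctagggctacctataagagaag
Ccl6: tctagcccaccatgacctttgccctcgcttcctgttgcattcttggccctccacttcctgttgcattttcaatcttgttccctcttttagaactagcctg
Ccl9: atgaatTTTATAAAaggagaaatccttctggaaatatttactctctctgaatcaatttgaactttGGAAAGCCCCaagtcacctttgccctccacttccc
Over the 250 bases before the start, TATAAA was found in Ccl12, from 31 to 26 bases before it, and in Ccl9, from 224 to 219 and, on opposite strands that overlap, from 94 to 87 bases before it, and 12.4% of 32851 promoters of the same length hold it. The kappaB motif was found in Ccl9 alone among the 4, from 35 to 26 bases before the start, and in 7.25% of all promoters. The STAT6-type motif TTCNNNNGAA was in none of the 4 and in 5.85% of all promoters, and its shorter form TTCNNNGAA was in none of the 4 and in 7.02% of all promoters. These are matches of letters in this window only.

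Ccl2, Ccl7 and Ccl12 were much higher after IL-4, and most of the other members were not. Ccl7 was 14.3-fold higher, Ccl2 8.49-fold and Ccl12 7.26-fold, and Ccl4 was 2.75-fold higher. Ccl9, Ccl5, Ccl3 and Ccl6 stayed within 2-fold in either direction. All 8 members were detected on both arrays, where detected means that the scanner software flagged the spot as well above background. No member spot was saturated or marked as an outlier, so every fold is measured and none is a bound. The 2-fold mark was passed upward by 4 of the 8 members and downward by 0. Of the 14073 named genes detected on 1 or both arrays, 3.06% passed it upward and 3.35% downward, so that 47.7% of all genes past the mark were higher, a share that ran from 42.1% to 73.5% under other scalings. The median log2 difference was 0.999 over the 8 members and -0.01 over all 12744 genes measured on both arrays. The members' median falls between Ccl9 at 0.54 and Ccl4 at 1.46, so no member lies near it.

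**Figure D1:**
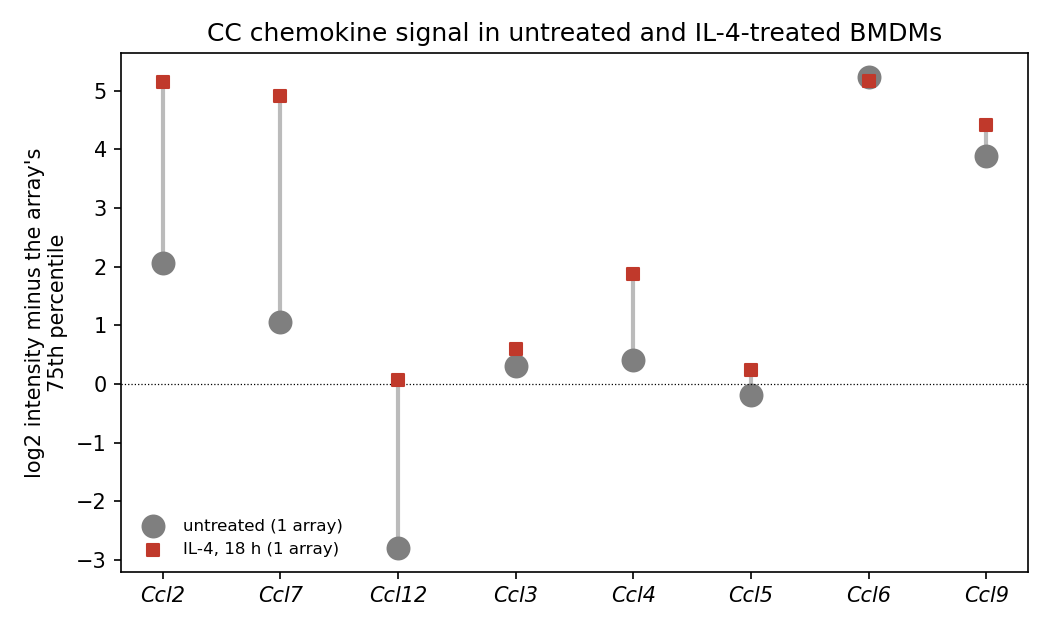
Log2 intensity minus the 75th percentile of the array (vertical axis) for the 8 CC chemokines, with 1 circle for the untreated array and 1 square for the IL-4 array. Ccl2, Ccl7 and Ccl12 are joined by the longest lines, at log2 differences of 3.09, 3.84 and 2.86, while the points of Ccl6 nearly coincide; heights of different genes are from different probes and are not comparable.

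Among the CCR2 ligands, Ccl2, which encodes MCP-1, had the firmest reading, because its probe was printed in 10 spots and the other 7 members were each printed in 1 spot. On the untreated array the background-subtracted intensity of the Ccl2 spots ran from 3621 to 4017 with a median of 3826, and on the IL-4 array from 33200 to 37193 with a median of 34385. The spots of the 2 arrays did not overlap, although they all read the same RNA of each condition. Spots of Tnf, with a scaled change of only 1.21-fold, did not overlap either, so this separation is not particular to Ccl2. After scaling, the log2 difference of Ccl2 was 3.09 ± 0.06 (SD over 10 spots). It lay between 2.99 and 3.18 in the single spots, and ranked 15th from the highest among the 12744 genes measured on both arrays.

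**Figure D2:**
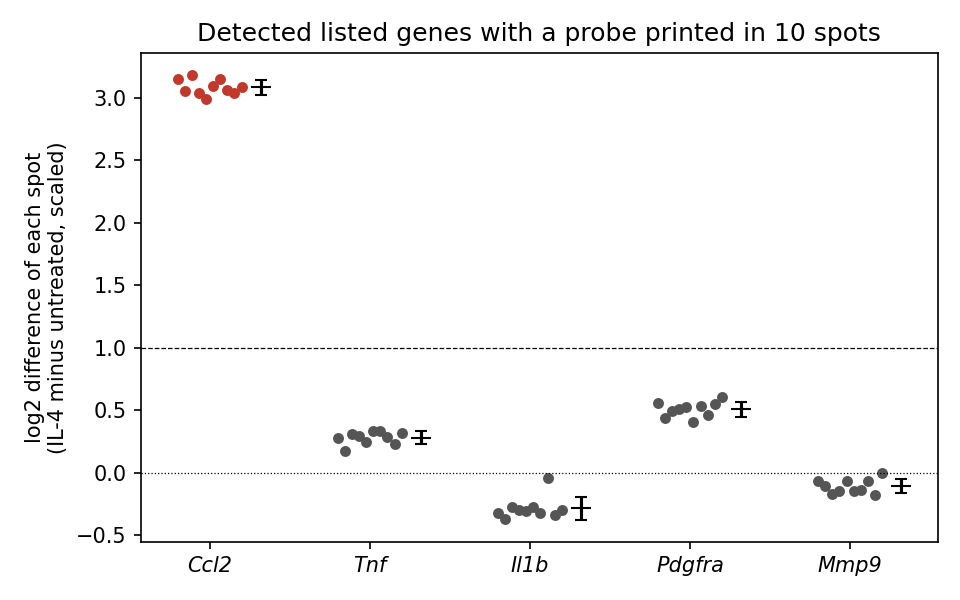
Scaled log2 difference, IL-4 minus untreated, of each of the 10 spots for the listed genes with such a probe that were detected on both arrays, with the mean and SD over spots beside them. The Ccl2 spots lie between 2.99 and 3.18, while Tnf, Il1b, Pdgfra and Mmp9 all stay below the dashed line of a 2-fold change.

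Ccl7, which encodes MCP-3 and is a strong CCR2 agonist, had an intensity of 1912 without IL-4 and 29310 with it. Its log2 difference of 3.84 was the highest of the 8 members and the 12th highest of the genes measured on both arrays. For single-spot probes the error is taken from repeated probes of similar signal, as the median SD over spots of the log2 difference, and it was 0.047 for Ccl7. Ccl12, which encodes MCP-5, went from an intensity of 132 to 1024. Its log2 difference was 2.86, ranked 22nd, with a spot error of 0.072, and the scanner software put the error of the untreated intensity at 11.1%. With normexp, another background correction, the log2 difference of Ccl12 was 2.25. Between the CCR2 ligands, Ccl7 exceeded Ccl2 by 0.75 in log2 difference and Ccl12 by 0.98, against spot errors of 0.066 and 0.086 for these gaps. Ccl2 exceeded Ccl12 by 0.23, with a spot error of 0.086. Under other settings the gap between Ccl2 and Ccl12 ran from 0.12 to 0.85 and that between Ccl7 and Ccl12 from 0.88 to 1.49, both highest with normexp, so the processing moved them by more than the spot error. With no replicate arrays these gaps carry no culture error.

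Ccl4 stood apart from Ccl3 and Ccl5. Ccl4, which encodes the macrophage inflammatory protein MIP-1β, had an intensity of 1217 in untreated BMDMs and 3580 after IL-4. This is a log2 difference of 1.46 with a spot error of 0.055, ranked 121st. Ccl3, which encodes the related MIP-1α, had intensities of 1135 and 1476, which after scaling is a log2 difference of 0.28 or 1.21-fold, with a spot error of 0.058. The change of Ccl4 therefore exceeded that of Ccl3 by 1.18 in log2, against a spot error of 0.080 for the gap. Ccl5, which encodes the T cell and monocyte attractant RANTES, had intensities of 809 and 1157, a log2 difference of 0.42 with a spot error of 0.059. The changes of Ccl5 and Ccl3 lay 0.14 apart, with a spot error of 0.083.

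Ccl6 and Ccl9 encode a pair of related CCR1 ligands, and both stayed within 2-fold. Ccl6 had an intensity of 34540 before and 35016 after IL-4. After scaling its log2 difference was -0.08, with a spot error of 0.043, and the sign turned with median scaling, without scaling and with scaling on spike-in controls, so no direction is given. Ccl9 had intensities of 13478 and 21019, a log2 difference of 0.54 or 1.46-fold with a spot error of 0.047. The changes of the pair differed by 0.62, against a spot error of 0.064. Ccl9, Ccl5 and Ccl3 were above 0 in each of the 13 other settings that give a value per gene, and below 2-fold in each. Among these, the settings for dim-probe filters, probe rules and outlier spots leave the members almost unchanged by construction.

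**Figure D3:**
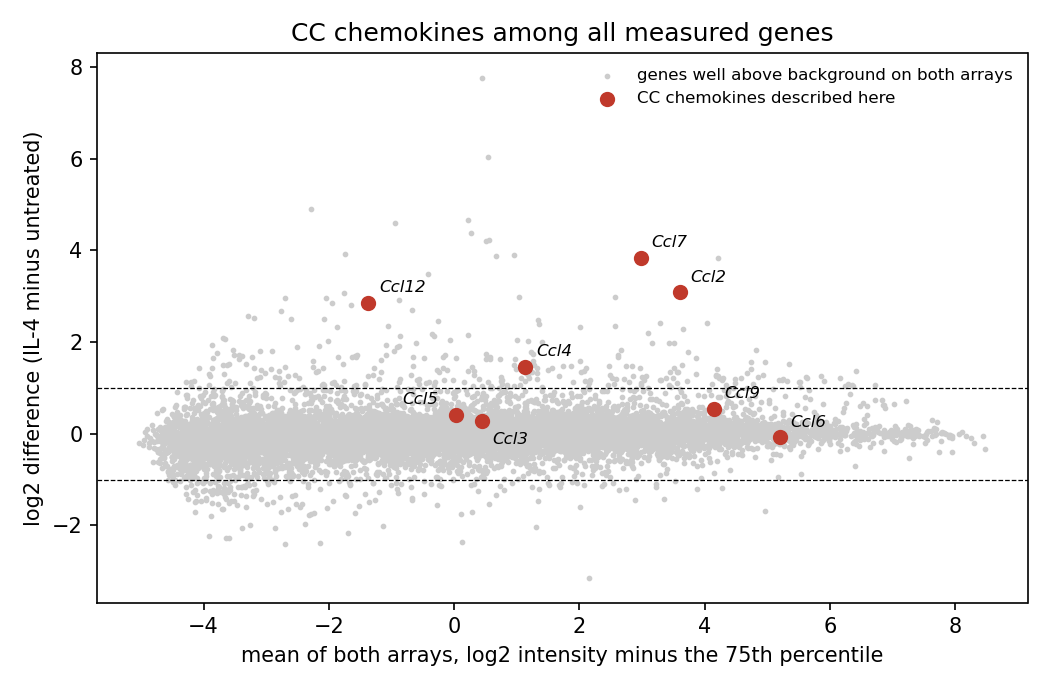
Log2 difference, IL-4 minus untreated (vertical axis), against the mean scaled log2 intensity of both arrays (horizontal axis) for the 12744 genes detected on both, with the 8 CC chemokines in red. Dashed lines mark 2-fold; Ccl7, Ccl2 and Ccl12 lie at the upper edge of the cloud, and Ccl3, Ccl5, Ccl6 and Ccl9 lie within it.

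The members lie in 2 neighbouring groups of genes, and the changes differed along them. In the order of the RefSeq table, the first group runs Ccl2, Ccl7, Ccl11, Ccl12, Ccl8 and Ccl1, and the second runs Ccl5, Ccl9, Ccl6, Ccl3 and Ccl4. That gene table was used for names and order only, since the array design was annotated on mm9. In the first group the 3 members, Ccl2, Ccl7 and Ccl12, were all more than 2-fold higher. Of the other genes in that group, only Ccl8 gave a fold. Ccl8, which encodes another monocyte attractant, MCP-2, had intensities of 149 and 193 and a log2 difference of 0.28. Ccl11, which encodes the eosinophil attractant eotaxin, was not detected in untreated BMDMs and was detected after IL-4 at an intensity of 29.7, which is too dim to give a fold. Ccl1, which encodes a CCR8 ligand, was detected on neither array. In the second group Ccl4, at the end of the row, was more than 2-fold higher and its neighbour Ccl3 was not.

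**Figure D4:**
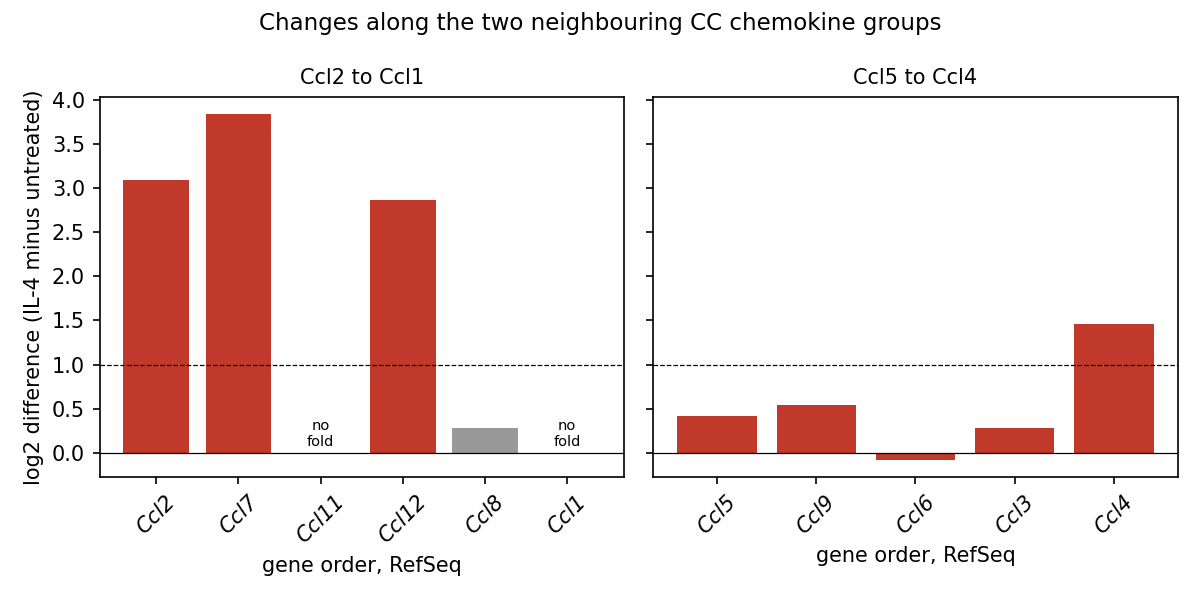
Log2 difference, IL-4 minus untreated, for the protein-coding genes of both chemokine groups in RefSeq order, with the 8 members in red and other genes in grey. The dashed line marks 2-fold; Ccl2, Ccl7, Ccl12 and Ccl4 reach it, and the genes marked as having no fold were too dim on 1 or both arrays.

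The receptors of these chemokines that were detected on both arrays did not show changes of that size. Of the 8 listed CC receptors and decoys, 5 were detected on both arrays and 0 of these passed 2-fold in either direction. With 6.42% of all named genes past that mark, a count of 0 in so few genes is near the background. Ccr2, the receptor of the monocyte chemoattractant proteins, had an intensity of 371 in untreated BMDMs and 222 after IL-4, a log2 difference of -0.84. This is the opposite sign to its 3 ligands, and Ccr2 stayed between -0.90 and -0.56 under the other settings. Ccr3, which binds the Ccl5 product, had intensities of 70.4 and 91.4 and a log2 difference of 0.28, with a range of -0.15 to 0.56 under other settings that crosses 0. Ccr1 was detected on neither array, so its change after IL-4 could not be read. Among the decoys, Ackr2, which clears inflammatory CC chemokines, had a log2 difference of -0.30 at its brighter probe, and Ackr1 was detected on neither array. Under other settings Ackr2 ran from -0.43 to -0.015. Ackr4 had a bound of -0.86, that is at least 1.82-fold lower with this scaling, so whether it passed 2-fold is open. Under other scalings the bound was weaker, down to -0.58 with spike-in scaling and -0.46 with quantile normalization. Without bounds and with the authors' values the log2 difference of Ackr4 was -2.98, from a signal not well above background after IL-4. Ccrl2, an atypical receptor that presents chemerin, had a log2 difference of -0.89.

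Of the other listed CC chemokines, 6 of the 12 on the array were detected at least once and 2 of them passed 2-fold upward, where 3.06% of all named genes did. Ccl24, whose product draws eosinophils, went from an intensity of 34.2 to 1094, a log2 difference of 4.90 or 29.9-fold, which was 3.26 with normexp. Ccl17, whose product draws T helper type 2 cells, went from 112 to 600, a log2 difference of 2.32 or 4.98-fold, which was 1.71 with normexp. Among 18 inducers and regulators of inflammatory chemokine transcription and RNA decay, 14 were measured on both arrays, 3 passed 2-fold upward and 0 downward, beside 3.06% and 3.35% of all named genes. Nfkb1, which encodes the NF-κB subunit p50 and its precursor, changed by 1.16 in log2 at its brighter probe and by 1.83 at the dimmer one. Il6, which encodes an inflammatory cytokine, was 2.14-fold higher from intensities of 65.6 and 150. Zc3h12a, which encodes a ribonuclease that degrades inflammatory mRNA, had a log2 difference of 1.03. With normexp the log2 differences of these 3 genes were 0.97, 0.45 and 0.53, all under 2-fold. Tnf and Il1b, inflammatory cytokines that were also printed in 10 spots, had log2 differences of 0.28 ± 0.05 and -0.29 ± 0.09 (SD over 10 spots). Under other settings Tnf ran from 0.23 to 0.57 and Il1b from -0.34 to -0.00055, the last with spike-in scaling. The scaling thus moved both by more than the spot SD. Over the 14 measured genes of this list the median was 0.45, from -0.29 for Il1b to 1.16 for Nfkb1. None of the 16 receptor signalling genes and none of the 7 chemokine-processing proteases detected on both arrays passed 2-fold in either direction. With 6.42% of all named genes past that mark, counts of 0 in lists of this size are near the background.

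The 5 genes checked for an IL-4 response, Arg1, Retnla, Chil3, Mrc1 and Socs1, were all more than 2-fold higher on the array labelled IL-4. Of the 7 macrophage markers, 6 were matched and all 6 were detected on both arrays, with a median log2 difference of -0.71. Csf1r, the M-CSF receptor, had intensities of 146026 and 166510 and a log2 difference of 0.09. Adgre1, which encodes F4/80, had intensities of 23816 and 28655 and a log2 difference of 0.17. Itgam had a log2 difference of -0.71 at its brightest probe, but -0.27 and -0.24 at its dimmer probes, also detected on both arrays. Lyz2 had a log2 difference of -0.70. Fcgr1 and Mertk were 2.34-fold and 2.20-fold lower after IL-4, and both came to under 2-fold with spike-in scaling, at -0.94 and -0.85. In bulk RNA, fewer cells of a type and less RNA per cell cannot be told apart. Fibroblasts can also make Ccl2 and Ccl7, so stromal markers were read beside them. All 6 stromal markers were detected on both arrays, and their log2 differences lay between -0.34 for Col1a1 and 0.61 for Pecam1. Col1a2 had intensities of 233342 and 234332 and a log2 difference of -0.09, and Pdgfra had intensities of 784 and 1194 and a log2 difference of 0.51. The log2 of their summed scaled signal, most of it from Col1a2, was 8.47 in untreated BMDMs and 8.34 after IL-4. The sign of that difference turned with scaling, from -0.13 to 0.08 with median scaling and 0.16 with spike-in scaling. The 5 matched neutrophil markers, all measured on both arrays, had a log2 summed signal of 2.63 and 2.14. The part of stromal cells and neutrophils in the chemokine signal was not tested. Of the T, NK and B cell markers 5 of 7 were detected on neither array, of the mast cell and eosinophil markers 3 of 6, and of the dendritic cell markers 4 of 6. The T cell marker Cd3e was detected on both arrays, at intensities of 343 and 296. Ncr1, at 40.6, was detected on the untreated array only. The dendritic cell marker Siglech had intensities of 29067 and 31659 at its brighter probe, while its other probe was detected on neither array. Zbtb46 had intensities of 48.2 and 36.1. The mast cell marker Cpa3 was at least 3.51-fold lower after IL-4, while the mast cell markers Ms4a2 and Mcpt4 were detected on neither array. The eosinophil markers Prg2 and Ear6 had log2 differences of 0.37 and 0.14.

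**Figure D5:**
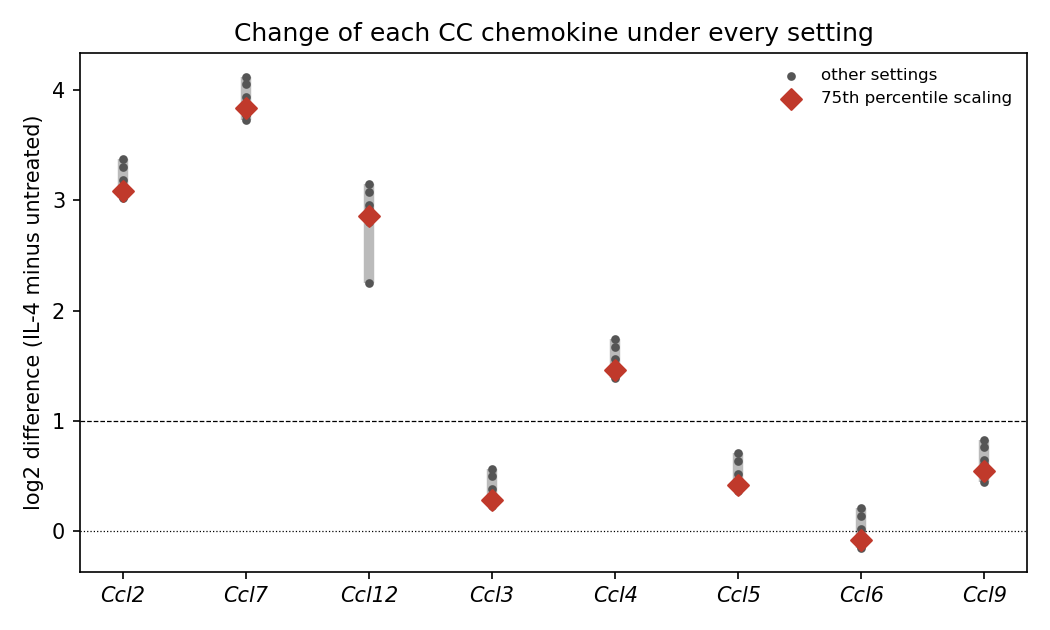
Log2 difference, IL-4 minus untreated, of each CC chemokine with 75th percentile scaling (red diamonds) and under the 13 other settings that give a value per gene (dots, with a bar over their range). Ccl2, Ccl4, Ccl7 and Ccl12 stay above the dashed 2-fold line under each of these, and Ccl6 has values on both sides of 0. The settings for dim-probe filters, probe rules and outlier spots leave the members almost unchanged by construction.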

How the data were processed

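The authors deposited the output of Agilent Feature Extraction 10.10.1.1 for 2 single-colour arrays, whose spot intensity has the background and within-array trends removed and is not scaled between arrays. They also deposited processed log2 values, whose scaling and tool are not given in the sources used here. The flags used, such as well above background, are other values that the authors deposited with the intensity. Here control spots and outlier spots were left out, log2 intensities were averaged over repeated spots, and each array was scaled by its 75th percentile, 9.84 (untreated) and 9.94 (IL-4). Each array held 43020 gene spots, of which 59.8% and 57.4% were well above background. Of 39429 probes, 27229 were named through RefSeq accessions, and a gene was read from its brightest probe. A probe well above background on 1 array gives a bound against the lowest such signal found on the other. The error of a single-spot probe is the median SD over spots of repeated probes within 1 log2 unit. Arrays, not depth, limit the precision. The members and gene lists were chosen with earlier results of these data known. The named genes are all members, all listed receptors and decoys apart from an item not reported here, other pathway genes at least 2-fold changed, and defining markers. Tnf, Il1b, Ccl8, Ccl11 and Ccl1 were named after their values were seen. The probe sequences were not used here, so whether probes of related chemokines share targets was not tested. Counting was tested on simulated data. Alternatives were other scalings, normexp with an offset of 50 on the median pixel intensity, other filters, probe rules and cutoffs, and the authors' values. The tools were limma 3.58.1 in R 4.3.3, and pandas 2.3.3 with numpy 2.4.6 in Python 3.11.15.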

Additional observations from a re-analysis of the deposited data

How the results depend on the processing

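No paired analysis was possible because only 1 array was made for each condition. The count of 4 members passing 2-fold upward and 0 downward held in all 15 other settings except a cutoff of 4-fold, which 3 members passed. Several of these settings could not test it. The dim-probe filters and probe rules could not change a member, since each had 1 probe, detected on both arrays. Keeping outlier spots could act only through the scaling, since no member had such a spot. The authors' values gave a nearly identical log2 difference for Ccl2, 3.087 against 3.086. The median log2 difference of the members, 0.999, was 1.21 with median scaling, 0.93 with quantile normalization, 1.099 without scaling, 0.94 with the 75th percentile of probes detected on both arrays, and 1.29 with scaling on 7 spike-in probes. Median and spike-in scaling also moved the median of all genes, from -0.01 to 0.20 and 0.27. Ccl6, at -0.08, was 0.13 with median scaling, 0.020 without scaling and 0.21 with spike-in scaling. The listed pathway genes past 2-fold were 5 in all, beside 6.42% of all named genes. Genes detected at least once were 6 receptors and decoys, 6 other CC chemokines, 16 receptor signalling genes, 14 inducers and regulators and 7 proteases. The listed genes past the mark numbered 2 with normexp, 10 with no filter on dim probes, 12 at a cutoff of 1.5-fold and 2 at a cutoff of 4-fold. The filter and cutoffs act by construction, and the cause for normexp was not tested. With the authors' values, where dim probes were given no bound, these genes numbered 7, with 6 higher and 1, Ackr4, lower. They numbered 4 with the 75th percentile of probes detected on both arrays. Over all genes, normexp left 250 higher and 153 lower against 431 and 472. Zc3h12a, at 1.03, was 0.97 with the 75th percentile of probes detected on both arrays. Ccl24, Zc3h12a, Ccl17, Il6 and Ccl12 had dim untreated signal, and each moved with normexp. Nfkb1, at an untreated intensity of 604, moved as well, from 1.16 to 0.97. Whether dim signal underlies these shifts was not tested.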
